A study of Mus musculus with 8 samples.

Results

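The cytosolic ribosomal protein genes of the mouse were followed through a capture experiment on the long noncoding RNA Lhx1os. Members were the protein-coding genes whose symbols follow the Rpl and Rps number pattern, with Rplp0, Rplp1, Rplp2 and Rpsa added, and without the ribosomal S6 kinases and the pseudogenes. This gave 84 of the 55471 genes in the deposited tables, 52 of the 60S and 32 of the 40S subunit. Of these, 81 passed the filter on low counts (16524 genes in all passed it). The remaining members, Rpl3l, Rpl10l and Rpl39l, which are known as tissue-restricted paralogs, had 1 count each over all libraries together.

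RNA came from spinal motor neurons differentiated from the mouse embryonic stem cell line HBG3, which carries the HB9::GFP transgene, a green fluorescent reporter driven by the promoter of the motor neuron gene Hb9 (Mnx1). The cells of all groups carried this reporter and were cultured for 3 days after plating. In the ODD and the EVEN group, Lhx1os was captured with biotinylated antisense oligonucleotides 20 nt long, in 2 separate probe sets. In the LacZ group the probes were directed against the bacterial LacZ mRNA as a negative control, and in the Input group no capture was made. Each group had 2 libraries, which the labels number replicate 1 and 2 and assign to 2 independent experiments, here called experiment 1 and experiment 2. Each experiment therefore had 1 Input library, and a property of that library cannot be told apart from a property of the experiment.

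Each ribosome holds close to one copy of nearly every ribosomal protein, joined to ribosomal RNA in a small (40S) and a large (60S) subunit. The mRNAs of these proteins are short, among the most abundant of a growing cell, and most begin with a run of pyrimidines called a 5′ terminal oligopyrimidine (TOP) tract, through which their translation is regulated as a group. In neurons they occur both in the cell body and in axons, and many of their genes carry small nucleolar RNAs (snoRNAs), guides of ribosomal RNA modification, inside their introns.

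The start tract is a sequence that members share and that the choice by symbol did not use. It is shown here in 30-base windows of the RefSeq promoter table (GRCm38.p6), from 15 bases before to 15 bases from the annotated start on, with the longest run of C and T in capitals. Rps6, Rplp2 and Rps27 show a tract across the start and Rpl4 one just before it, while Rpl22 and Rpl5 hold no run longer than 4 bases in this window.
Rps6 (chr4:86857353-86857382, minus strand): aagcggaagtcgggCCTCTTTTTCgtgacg
Rplp2 (chr7:141447636-141447665, plus strand): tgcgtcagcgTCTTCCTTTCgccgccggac
Rpl4 (chr9:64173372-64173401, plus strand): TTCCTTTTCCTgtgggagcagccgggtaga
Rps27 (chr3:90213634-90213663, minus strand): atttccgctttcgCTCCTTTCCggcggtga
Rpl22 (chr4:152325711-152325740, plus strand): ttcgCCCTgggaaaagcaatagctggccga
Rpl5 (chr5:107900513-107900542, plus strand): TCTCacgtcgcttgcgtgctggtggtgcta
The table held starts for 64 members, with 76 windows. A run of at least 10 pyrimidines was found in 64.5% of the members' windows of 100 bases, against 18.1% of the 32851 windows of all genes. On the opposite strand the shares were 10.5% and 19.0%. The motif CTTTCC or CTTTTC (the letters of either, which can overlap the run) was in 42.1% of the members' windows and 8.11% of all windows, and on the opposite strand in 5.26% and 7.56%. These matches describe letters near annotated starts only.

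Ribosomal protein mRNAs were abundant in Input. Their mean Input level ranged from 16.7 to 377 FPKM (counts scaled to gene length and library total) over the 81 tested members, with a median of 105. The median tested protein-coding gene had 7.40 FPKM, and 98.6% of all tested genes lay below the median member. Gene lengths in the table were those of all annotated exons merged, which were up to 6.79 times (median 1.95 times) the length of the principal mRNA over the 75 tested members with one, so the members' FPKM understate the level per mRNA length. The acidic stalk protein Rplp1, which takes part in recruiting elongation factors, was listed at 359 and 396 FPKM in the Input libraries of experiments 1 and 2. Rps15, a protein of the 40S head, had 314 and 441 FPKM, and Rpl23a, which lies at the end of the nascent chain exit tunnel, had 279 and 419 FPKM. These genes and the stalk base Rplp0 (311 and 286 FPKM) and the tunnel protein Rpl4 (267 and 313 FPKM) were the 5 highest members by mean. Neighbours in this order had overlapping ranges, so 2 libraries do not resolve it.

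**Figure D1:**
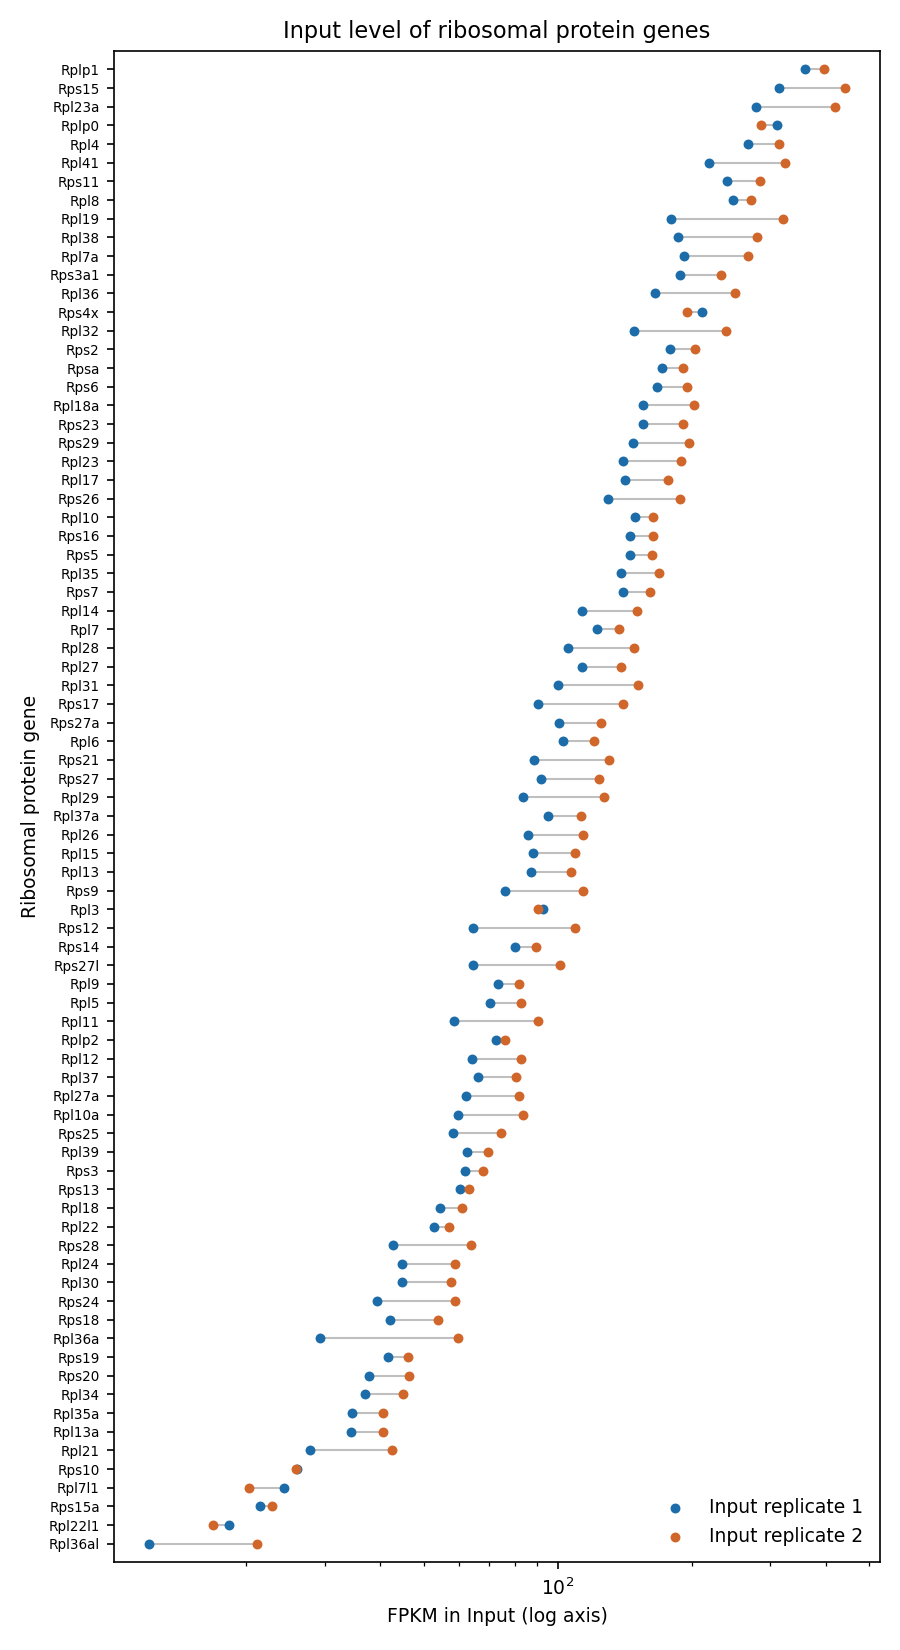
FPKM (log axis) of tested ribosomal protein genes in the 2 Input libraries, 1 row per gene, ordered by the mean, with a line joining the libraries. Mean levels run from 377 FPKM for Rplp1 to 16.7 FPKM for Rpl36al, and most genes have the higher value in replicate 2.

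The lowest tested members included several paralogs, copies of a ribosomal protein gene, some of which can replace the common form. Rpl22l1 had 18.4 and 16.8 FPKM in Input, below its partner Rpl22 with 52.6 and 57.1. Rpl36al had 12.1 and 21.2 FPKM against 29.3 and 59.6 for Rpl36a, and Rpl7l1 had 24.3 and 20.3 FPKM against 122 and 137 for Rpl7. In each of these pairs the libraries of the partner were all higher. Rps27l, a paralog known as a p53 target, came closer to Rps27, with 64.4 and 101 FPKM against 91.7 and 124, and their ranges overlapped. Rps10 (26.0 and 25.9 FPKM) and Rps15a (21.5 and 22.9 FPKM) completed the 5 lowest. Merged gene length was from 1 to 6.79 times the principal mRNA length, so these ranks and pair differences also depend on it. For Rpl39l, Rpl10l and Rpl3l, 1 count in the whole study gives no level, whereas Rpl39 had 66.1 ± 4.93, Rpl10 156 ± 10.1 and Rpl3 91.6 ± 1.62 FPKM in Input (SD, n = 2). Rps4x had 203 ± 11.3 FPKM, and its paralog Rps4l is annotated as a pseudogene and is no member.

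The 84 genes together took a share of the counts that moved in opposite directions in Input and in the pull-downs. In experiment 1 they held 1.54% of the counts in Input, 2.31% with LacZ probes, 2.07% with ODD and 2.09% with EVEN. In experiment 2 they held 1.90% in Input, 1.43% with LacZ probes, 1.46% with ODD and 1.46% with EVEN. All pull-downs of experiment 1 were above both Input libraries, and all pull-downs of experiment 2 were below both. The counting error is small beside this, since the widest 95% Wilson interval, that of LacZ in experiment 1, ran from 2.30% to 2.32% and covers counting error only. Over both experiments the group means were 1.72% ± 0.256 for Input, 1.87% ± 0.622 for LacZ, 1.77% ± 0.436 for ODD and 1.78% ± 0.449 for EVEN (SD, n = 2 each), so that the groups overlapped. A sum over chosen genes was given no test.

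**Figure D2:**
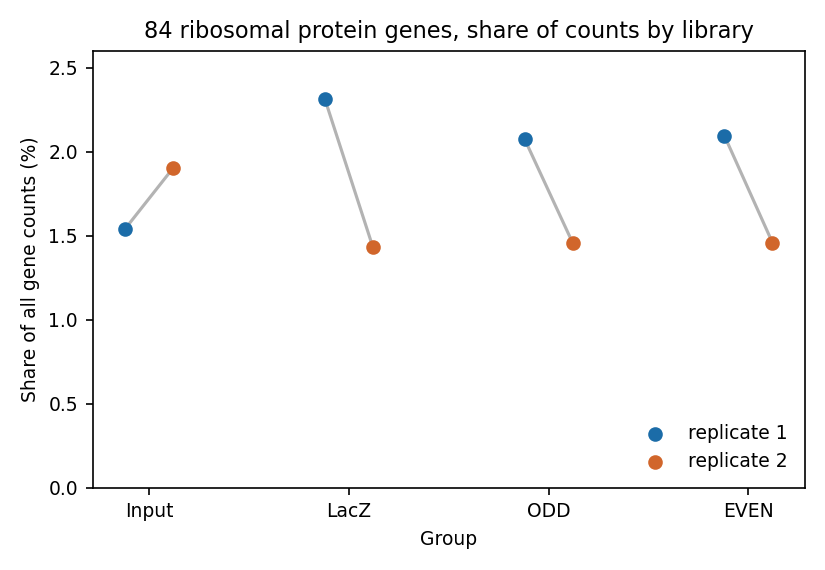
Share of all gene counts (%) held by the 84 ribosomal protein genes in each of the 8 libraries, by group, with replicates (experiments) 1 and 2 joined by a line. Input goes up from 1.54% to 1.90% between the experiments, while LacZ goes from 2.31% to 1.43%, ODD from 2.07% to 1.46% and EVEN from 2.09% to 1.46%.

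Enrichment was judged in the study as the level in a pull-down relative to Input. With both experiments pooled, few ribosomal protein mRNAs passed the test, which was edgeR's quasi-likelihood fit over all genes with Benjamini-Hochberg adjustment and a threshold of 0.05. For ODD over Input 1 of 81 members was higher and 0 were lower, where 6.46% of all tested genes were higher and 0.375% lower. For LacZ over Input the counts were 1 and 0, with 6.98% and 0.43% among all genes. For EVEN over Input they were 0 and 0, with 5.37% and 0.284% among all genes. The count for ODD was 0 without any one library other than ODD replicate 1, and that for LacZ was 0 without any one of the Input, LacZ or EVEN libraries. At an unadjusted p under 0.05 there were 3 members for ODD, 3 for EVEN and 1 for LacZ, and the share of all genes at that level is not given here. With EVEN, DESeq2 called 1 member, and the fit with the experiment as a replicate block called 2, both higher, of which Rpl5 is one. The members' median log2 fold change was -0.08 for ODD, -0.03 for EVEN and -0.02 for LacZ, and that of all tested genes was -0.03, -0.00 and -0.05. The 2497 protein-coding genes within the members' range of length and Input FPKM had medians of -0.21, -0.18 and -0.24. With the block and each library's trend on gene length removed, 18, 16 and 15 members were called for ODD, EVEN and LacZ, of which 16, 14 and 14 were lower. The shares of all genes given above belong to the fit by group and are no background for these counts. The share of all genes called with the length trend removed is not given here. These comparisons share the Input libraries.

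Among the members highest over Input were Rps3a1, Rpl5 and Rpl7, and those at the lower end were Rpl36, Rps12, Rpl32 and Rps21, none of which passed the test. Rps3a1, a 40S protein, had 188 and 232 FPKM in Input. With the probes of experiment 1 it had 454 (LacZ), 384 (ODD) and 385 (EVEN), and with those of experiment 2 it had 237, 253 and 273. Its fold change for ODD was 0.60 (SE 0.36, edgeR adjusted p = 0.475). The higher level thus lay almost wholly in experiment 1. Rpl36, a 60S protein, had 165 and 250 FPKM in Input, then 158, 144 and 171 with LacZ, ODD and EVEN in experiment 1 and 90.9, 84.4 and 80.5 in experiment 2. It was close to Input in the former and far below it in the latter, with a pooled change for ODD of -0.86 (SE 0.46, edgeR adjusted p = 0.395).

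Lhx1os probes were also compared with LacZ probes, which asks whether the captured RNA brought ribosomal protein mRNAs along. No member passed the test in ODD against LacZ, EVEN against LacZ, their mean against LacZ or ODD against EVEN, in edgeR or DESeq2, and 0 members had an unadjusted p under 0.05 in edgeR. Among all tested genes the share called was 0.0% in each of the comparisons. The median change of the members was -0.05 for ODD, -0.03 for EVEN and -0.04 for their mean, against LacZ, and -0.02 for ODD against EVEN. Lhx1os itself, on the scale of counts, had 0.0178% and 0.00361% of the counts with ODD, 0.0148% and 0.00245% with EVEN, 0.00021% and 0.000251% with LacZ and 0.000223% and 0.000297% in Input, so its capture was stronger in experiment 1. Since no gene was called in edgeR against LacZ, the test did not call Lhx1os, the captured RNA, either. An absent call at 2 libraries a group does not show that the levels were alike.

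The smallest p among these comparisons belonged to Rpl22, an RNA-binding 60S protein that cells can do without, and it rested on 1 library. Rpl22 had 52.6 and 57.1 FPKM in Input, 131 and 39.2 with LacZ probes, 52.1 and 40.1 with ODD, and 48.4 and 40.7 with EVEN. LacZ in experiment 1 was 2.26 times the next library in CPM (counts scaled to the TMM-adjusted library size). Its log2 change for the ODD and EVEN mean relative to LacZ was -0.86 (SE 0.42, edgeR adjusted p = 1.00). Leaving out LacZ replicate 1 turned this to 0.27, and leaving out LacZ replicate 2 gave -1.49.

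The same library stood out for other 60S members. Rpl17, which surrounds the exit tunnel, had 347 FPKM in LacZ of experiment 1 and between 116 and 177 in the other libraries, and Rpl27 had 221 FPKM against 76.3 to 138. They were 1.93 and 1.56 times the next library. LacZ of experiment 1 was over 1.5 times every other library for these 3 members and for 0.635% of all tested genes, and it was the highest library for 42 of 81 members. Input of experiment 2 was the highest for 25. LacZ of experiment 1 had the lowest depth, 7632775 counts. Rpsa, a 40S protein also known as a laminin receptor, was highest in ODD of experiment 1 (292 FPKM, against 134 to 227 elsewhere), 1.32 times the next library. Rpl4 was highest in EVEN of experiment 2 (473 FPKM).

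**Figure D3:**
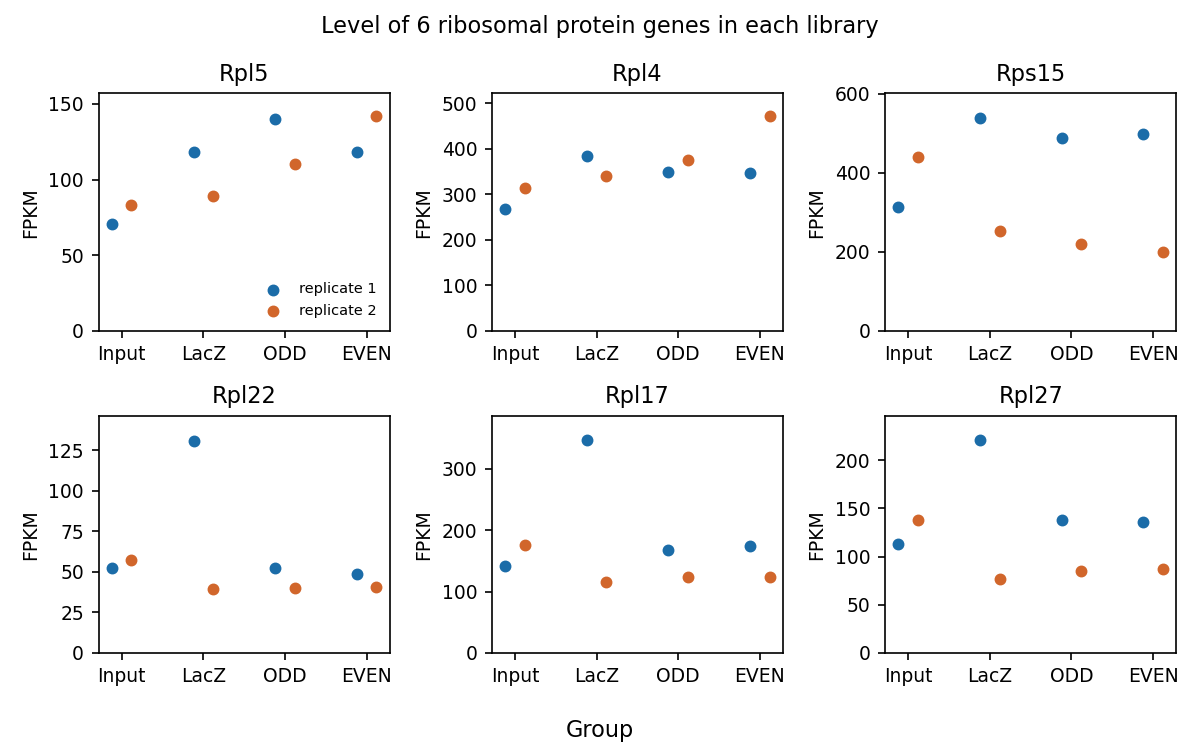
FPKM of Rpl5, Rpl4, Rps15, Rpl22, Rpl17 and Rpl27 in the 8 libraries, by group, with replicates (experiments) 1 and 2 as separate points; each axis starts at 0. Rpl5 is above both Input libraries in all 6 pull-downs, Rps15 is above Input in experiment 1 and below it in experiment 2, and LacZ replicate 1 stands apart for Rpl22 (131 FPKM), Rpl17 (347 FPKM) and Rpl27 (221 FPKM).

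Within each experiment the ribosomal protein mRNAs moved together against Input, upward in experiment 1 and downward in experiment 2. The median log2 ratio of a pull-down to the Input of its experiment, in TMM-scaled CPM, was 0.47 for LacZ, 0.33 for ODD and 0.37 for EVEN in experiment 1. In experiment 2 it was -0.58, -0.53 and -0.49. The median over all tested genes stayed between -0.07 and 0.00 in the 6 libraries. Over the genes of like length and level it was -0.13 (LacZ), -0.12 (ODD) and -0.12 (EVEN) in experiment 1. For these genes it was -0.40, -0.35 and -0.28 in experiment 2, so they too lay further below Input there. The LacZ control probes gave the same pattern as the Lhx1os probes.

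Gene by gene, 68 of 81 members were above Input in all 3 pull-downs of experiment 1, as were 39.5% of all tested genes. In experiment 2, 69 of 81 were below Input in all 3, as were 42.0% of all genes. All 3 were below Input in experiment 1 for 5 members (38.6% of all genes), and all 3 were above it in experiment 2 for 4 (35.3%). Levels above Input in all 3 libraries of experiment 1 and below it in all 3 of experiment 2 were found for 56 members (69.1%), for 8.36% of all tested genes and for 18.3% of the genes of like length and level. The opposite pattern, below Input first and above it in experiment 2, was found for 0 members and 6.09% of all genes. Because the 3 ratios of an experiment share 1 Input library, these counts are descriptions with no test.

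**Figure D4:**
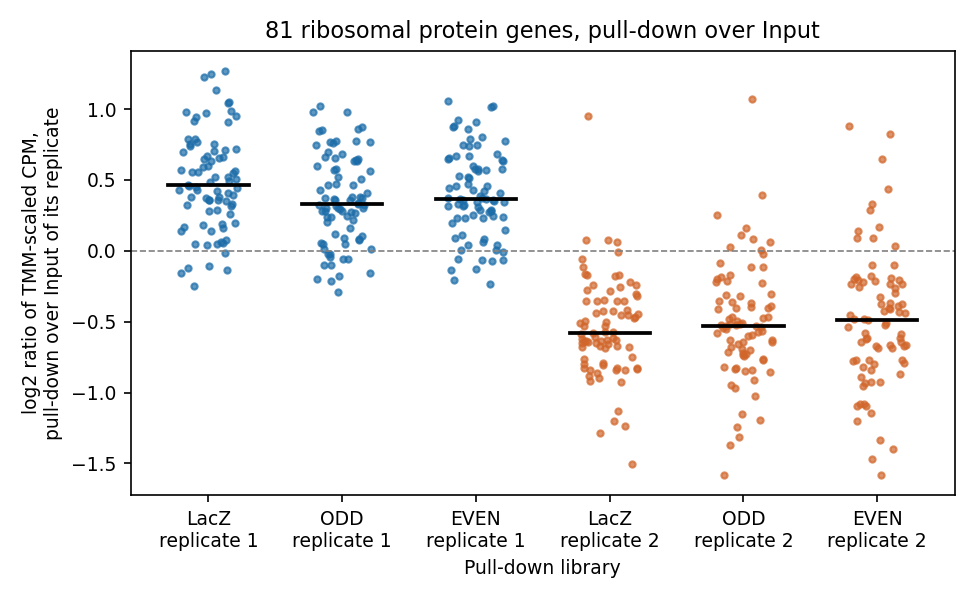
log2 ratio of TMM-scaled CPM in each pull-down library to the Input library of the same replicate (experiment), with 1 point per tested ribosomal protein gene (81) and a bar at the median. The medians are 0.47, 0.33 and 0.37 in replicate 1 and -0.58, -0.53 and -0.49 in replicate 2.

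Both Input and the pull-downs moved, in opposite directions. In Input, 75 of 81 members were higher in experiment 2 than in experiment 1, as were 57.7% of all tested genes. The exceptions were Rpl3, Rpl7l1, Rpl22l1, Rplp0, Rps4x and Rps10. In the pull-downs, 72 of 81 members had all 3 libraries of experiment 2 below all 3 of experiment 1 (27.3% of all genes), and 1 had them all above (26.5% of all genes). Among the genes of like length and level these shares were 46.9% and 20.0%.

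With all 8 libraries in one fit and group held, 0 members were higher and 14 lower in experiment 2, where 15.0% of all tested genes were higher and 12.4% lower. These 14 were Rpl7l1, Rpl8, Rpl10, Rpl18, Rpl22l1, Rpl37a, Rplp0, Rplp1, Rps2, Rps4x, Rps10, Rps13, Rps16 and Rps19. The smallest p belonged to Rpl7l1 (log2 change -0.39, SE 0.08, edgeR adjusted p = 0.00998), followed by Rps4x, Rplp0 and Rpl22l1. All 4 are among the genes that were not higher in Input in experiment 2. The count changed with single libraries. Leaving out any pull-down library gave 0 or 1 calls, and leaving out either Input library gave 72 or 73. In the latter fits the remaining Input library is fitted exactly, so the change between experiments comes from the 6 pull-downs alone. In the 6 pull-down libraries alone, a fit added after the data were seen, 1 member was higher and 72 were lower in experiment 2, where 19.2% of the 16295 genes tested were higher and 21.8% lower. The median change was -0.66, against -0.02 over all genes. The largest falls were those of Rps15 and Rps19 (both -1.21) and Rps16 (-1.20). Rpl4, Rpl5, Rpl12, Rpl22, Rpl38, Rpl39, Rps24 and Rps29 did not pass. The pull-downs of an experiment share its cells, so these p-values measure the spread between capture libraries, not between experiments.

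The difference itself was tested as an interaction, the change from experiment 1 to 2 in the pull-downs minus that in Input, a model also added after the data were seen. No member was higher and 53 of 81 were lower, where 1.28% of all tested genes were higher and 3.71% lower. The median over the members was -0.97, that over all tested genes -0.05 and that over the 2497 genes of like length and level -0.19, of which 347 were lower and 13 higher. Members made up 8.65% of all genes called lower. The model leaves 2 residual degrees of freedom and rests on 1 Input library per experiment. It fits the Input libraries exactly, so its p-values measure the spread between pull-down libraries and hold none between Input libraries. With each library's trend on gene length removed, 21 members were lower, and limma on log2(FPKM + 1) gave 32. Leaving out LacZ replicate 1, the library of lowest depth, gave 61.

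Rps15 had the largest difference. It is encoded at chr10:80292453-80294114 (plus strand). Its level in Input went from 314 to 441 FPKM between the experiments, and it fell from 539 to 253 with LacZ, from 488 to 219 with ODD and from 499 to 199 with EVEN. All pull-downs of experiment 1 lay above both Input libraries and all of experiment 2 below both, and the difference was -1.66 (SE 0.14, edgeR adjusted p = 0.00325). At the other end Rpl39 (0.01, SE 0.16), Rpl4 (-0.08, SE 0.25), Rpl7l1 (-0.15, SE 0.13), Rpl3 (-0.25, SE 0.14) and Rpl5 (-0.38, SE 0.28) did not pass. Rpl39 and Rpl7l1 were below the Input of their experiment in all 6 pull-downs, and Rpl3, Rpl4 and Rpl5 were above it in all 6.

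**Figure D5:**
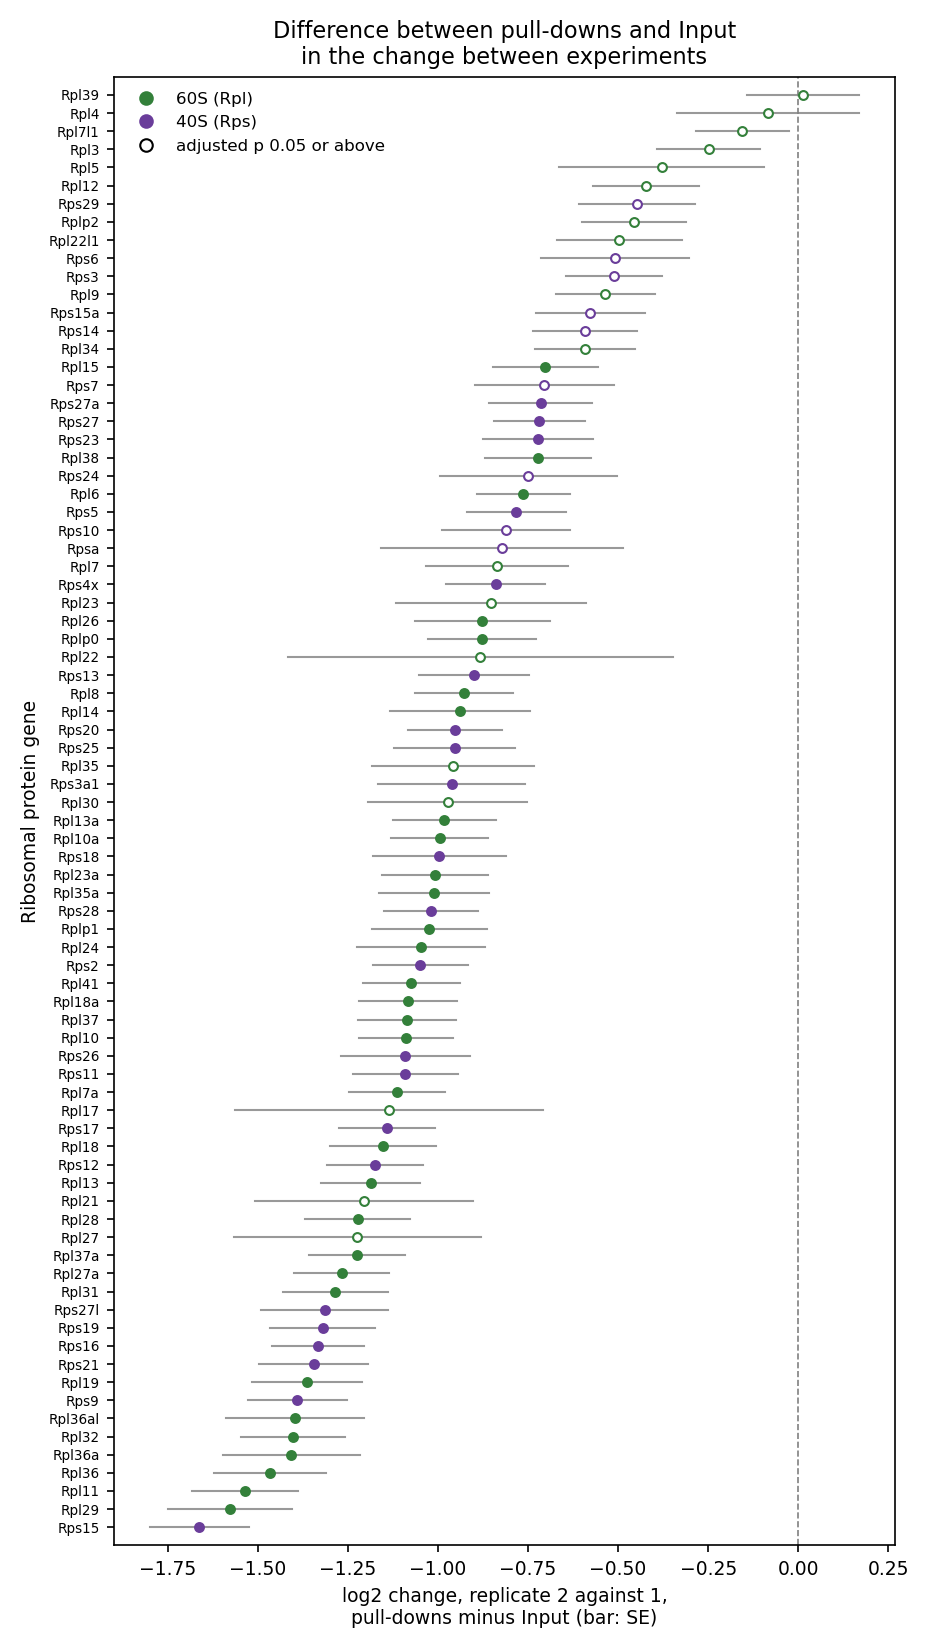
For the ribosomal protein genes shown, the log2 change from replicate (experiment) 1 to 2 in the pull-downs minus that in Input, with its SE as a bar; filled points have an adjusted p under 0.05 in edgeR. Values run from -1.66 for Rps15 to 0.01 for Rpl39, 53 points are filled, and both subunits have filled and open points.

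Members of both subunits and of several roles were among those called. In the 60S subunit 31 of 49 tested members were lower in the interaction (median -1.01), and in the 40S subunit 22 of 32 (median -0.93). Of the stalk proteins, Rplp0 (-0.88, SE 0.15, edgeR adjusted p = 0.0267) and Rplp1 (-1.02, SE 0.16, edgeR adjusted p = 0.0211) passed, and Rplp2 did not (-0.46). The partners in the 5S particle, which can bind the p53 regulator Mdm2 when free, came apart. Rpl11 had 58.6 and 90.3 FPKM in Input, 104, 93.0 and 98.9 in the LacZ, ODD and EVEN libraries of experiment 1 and 59.1, 51.1 and 45.7 in those of experiment 2, a difference of -1.54 (SE 0.15, edgeR adjusted p = 0.00494). Rpl5 had 70.6 and 82.9 FPKM in Input, 118, 140 and 118 in experiment 1 and 88.9, 110 and 142 in experiment 2, so all pull-downs were above both Input libraries. Whether Rpl5 and Rpl11 differ from each other was not tested. Rps27a, made as a fusion with ubiquitin, was at -0.71 (SE 0.14, edgeR adjusted p = 0.0413).

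Among 40S members with a known role, Rps19, whose human counterpart is mutated in Diamond-Blackfan anaemia, was at -1.32 (SE 0.14, edgeR adjusted p = 0.0067). Its level with the LacZ, ODD and EVEN probes was 68.1, 63.4 and 65.0 FPKM in experiment 1 and 31.1, 30.1 and 25.2 in experiment 2, against 41.6 and 46.1 in Input, so the pull-downs lay on either side of Input. Rps3 (-0.51), a protein of the mRNA entry channel, Rps14 (-0.59), of the platform, Rps6 (-0.51), the substrate of the S6 kinases, and Rpsa (-0.82) did not pass. Rps6 had 167 and 195 FPKM in Input, 271, 250 and 251 in experiment 1 and 185, 206 and 235 in experiment 2. Around the peptidyl transferase centre and the tunnel, Rpl8 (-0.93), Rpl10 (-1.09), Rpl13a (-0.98), Rpl23a (-1.01) and Rpl26 (-0.88) passed, as did Rpl41 (-1.07), the smallest ribosomal protein. Rpl3 and Rpl4, of the centre and the tunnel, did not.

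Paralogs and their partners were called together in some pairs. Rpl36a and Rpl36al were at -1.41 and -1.40, both past the threshold, and so were Rps27 (-0.72) and Rps27l (-1.31). Rpl22 (-0.88, SE 0.53) and Rpl22l1 (-0.50, SE 0.17), and Rpl7 (-0.84, SE 0.20) and Rpl7l1 (-0.15, SE 0.13), did not pass. Differences within a pair were not tested. Near-identical copies could share reads: 60 members have pseudogenes named after them, 294 in all. From 0.012% to 0.0256% of the counts in a library fell on these pseudogenes, so few reads were assigned to them.

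Features of the genes were compared as descriptions. The 30 members that hold an annotated snoRNA had 17 lower calls and a median of -0.98, and the 51 tested members without one had 36 and -0.96. Over Input, pooled, the medians of hosts and non-hosts were 0.04 and -0.14 for ODD, 0.04 and -0.07 for EVEN and 0.06 and -0.04 for LacZ. Of the 44 members with a start tract of at least 10 pyrimidines, as printed for Rps6, 30 were lower (median -0.995). Of the 17 tested members with a window and no such tract, among them Rpl5 and Rps27, 11 were lower (median -0.88). Another gene overlaps the exons of 25 members, such as Rpl24, Rps10 and Rpl13a, and no source used here states whether counting used the strand. Of these 25, 19 were lower, with a median of -1.01, and of the 56 others 34, with -0.91.

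The members were also ordered by mRNA length. In the 25 members with the shortest principal mRNA (345 to 733 bases) the median interaction was -1.05, in the next 25 (738 to 1047 bases) -0.94 and in the longest 25 (1049 to 5179 bases) -0.88. Across the 81 members the value correlated with log2 gene length at r = 0.313 (rho 0.335) and with GC content at r = -0.184 (rho -0.175). The mean log2 ratio to Input of a member in experiment 1 and that in experiment 2 correlated at r = 0.498 (rho 0.438, n = 81), so members high in one tended to be high in the other. These points share libraries, and no p is given.

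Related genes were set beside the members with the same fit. Of the 20 other mRNAs with a known TOP tract, 0 were higher and 6 lower in the interaction, with a median of -0.57. The 6 were Btf3, Eef1b2, Eef1g, Eif3f, Eif3k and Npm1, factors of translation or nascent chains and the nucleolar protein nucleophosmin. The most abundant were Eef1a1 (-0.39), an elongation factor that did not pass, Eef2 (-0.00) and Tpt1 (-0.76, edgeR adjusted p = 0.0646). Of 77 tested mitochondrial ribosomal protein genes, 21 were lower, with a median of -0.64, so genes of the mitochondrial ribosome were among those called too. Ribosome assembly factors had 2 higher and 3 lower of 30 (median -0.09). The higher ones were Mdn1 (1.16) and Utp20 (0.94), and the lower ones Nop10 (-1.72), Nhp2 (-1.03) and Ncl (-0.97). None of the kinases passed, 0 of 10 (median 0.02). Of the ribosomal proteins that the symbol pattern misses, Fau (-1.20, SE 0.16, edgeR adjusted p = 0.0123) passed, and Rack1 (-0.60) and Rps27rt (-0.44) did not. Of 29 tested ribosomal protein pseudogenes 1, Rps2-ps10, was lower (-1.16), and the median was -0.45.

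Other features of the cultures moved with the experiment, and their part in these results was not tested. The 7 motor neuron markers held 0.0174% to 0.0197% of the counts in the 4 libraries of experiment 1 and 0.0337% to 0.0348% in experiment 2, and 5 of the 7 were higher in experiment 2 with group held. Of the 5 pan-neuronal markers 3 were higher, and of the 4 progenitor markers 3 were lower. Among all tested genes 15.0% were higher and 12.4% lower in the same fit. In bulk RNA, fewer cells of a type and less RNA per cell cannot be told apart. These marker shares had the same direction in Input and in the pull-downs. In the interaction 0 of the 16 motor neuron, neuron and progenitor markers passed. Among all tested genes 1.28% were higher and 3.71% lower there, so the count is near the background. Of the other markers, Col1a1 (0.94) of fibroblasts was higher there, Malat1 (-0.77), a nuclear RNA, was lower, and the 1 tested astrocyte marker did not pass. Pluripotency markers were at or near 0, with at most 11 counts in a library.

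The captured RNA also differed from Input in kind. Protein-coding genes held 97.4% to 98.2% of the counts in Input and 93.5% to 95.2% in the pull-downs, and the nuclear RNAs Malat1, Neat1, Meg3 and Xist together 0.356% and 0.707% in Input and 1.12% to 1.46% in the pull-downs. Mitochondrially encoded genes went from 0.48% to 0.682% in Input between the experiments, and from 0.568% to 0.235% with LacZ, 0.464% to 0.207% with ODD and 0.503% to 0.247% with EVEN, the same directions as the ribosomal protein genes. Their part in the result was not tested.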

How the data were processed

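Whole-number read counts per gene, and FPKM values with a length per gene, were deposited by the authors for 8 libraries prepared with a stranded total RNA kit including ribosomal RNA depletion, per the labels' protocols. The submitters' processing notes name cutadapt 3.2, Bowtie2 2.4.2, Picard, HTSeq 0.13.5 and GRCm38. No source used here gives their order, settings, use of strand or treatment of duplicates. Each deposited FPKM value equalled its count over length and column total. Identifiers were matched to GENCODE M21 (55230 of 55471), and 99.1% of the matched lengths equalled merged exons. The Input libraries held 24628435 and 20515501 counts and the pull-downs from 7632775 (LacZ replicate 1) to 12563449 (ODD replicate 1), and the lowest count of a tested member in a library was 225.

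Counts were tested with edgeR 4.0.16 (R 4.3.3): quasi-likelihood test, all 8 libraries, group as the term, TMM scaling, filterByExpr, two-sided p, Benjamini-Hochberg adjustment over 16524 genes, threshold 0.05. The SE is the fold change over the root of F. The test was checked on simulated counts. P-values of the fit by group measure the spread between 2 libraries a group. Those of the interaction measure the spread between pull-down libraries only, because the Input libraries are fitted exactly there. The labels tie the replicate numbers to independent experiments, and deviations from group means correlated between same-numbered libraries (r between 0.517 and 0.719), so the numbers pair the libraries. The fits of the pull-downs alone and of the interaction were added after the data were seen. DESeq2 1.42.0 and limma 3.58.1 on log2 of the deposited FPKM plus 1 were alternatives, with other scalings, filters, GC or length trends removed (natural spline, 5 degrees of freedom), fits of single pairs of groups, a minimum log2 fold change of 1 and libraries left out.

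The members and gene lists were chosen with earlier results of these data known. Named were members by role and paralogy, the 4 highest and 4 lowest over Input, the 5 highest and 5 lowest in Input, the 3 of smallest p in each comparison of pull-downs, and the 4 of smallest p between experiments. Others named were chosen after their values were seen: Rps15, Rpl17, Rpl27 and Rps16 in part, the lists of called or exceptional members, and the examples of overlapping genes. Some genes enter the counts and medians but are not reported here by name, nor shown in the plots that label genes. Sequences are from RefSeq (GRCm38.p6).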

Additional observations from a re-analysis of the deposited data

Results flagged for a closer look

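The change of the ribosomal protein genes between the experiments differed between the pull-downs and Input by a test of the difference itself: 53 of 81 members were lower in the interaction of experiment with pull-down (edgeR, adjusted p under 0.05) and 0 were higher, where 3.71% of all tested genes were lower and 1.28% higher. The share of counts held by the members went from 1.54% to 1.90% in Input, and from 2.31% to 1.43%, 2.07% to 1.46% and 2.09% to 1.46% in LacZ, ODD and EVEN. Each experiment had 1 Input library, so a difference between these libraries cannot be told apart from one between the experiments. The p-values of the interaction hold no spread between Input libraries.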

How the results depend on the processing

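With a replicate block, 1 member was called in ODD over Input, 1 in LacZ over Input and 2 in EVEN over Input, where the fit without it gave 1, 1 and 0; the block changed no count of members called between pull-downs. For ODD over Input (1 call), no filter beyond 1 count gave 3, the block with the GC trend removed 2 and the block with the length trend removed 18 (2 higher, 16 lower). For LacZ over Input (1 call), the last of these gave 15 and the block with the GC trend removed 2. In both, a filter of 50 counts in 2 libraries, limma, only the groups compared and a minimum log2 fold change of 1 gave 0, and leaving out single libraries gave 0 to 1. For EVEN over Input (0 calls), no filter gave 2, DESeq2 1, the block with the GC trend removed 4 and with the length trend removed 16, and leaving out single libraries gave 0. Between experiments (14 calls), no filter gave 32, DESeq2 26, limma 4, a minimum log2 fold change of 1 gave 0, and leaving out single libraries gave 0 to 73. In the pull-downs alone (73 calls) the minimum fold change gave 0 and leaving out single libraries 67 to 75. In the interaction (53 calls), limma gave 32, the length trend removed 21 and the minimum fold change 0, while leaving out single pull-downs gave 40 to 63, and without an Input library it could not be fitted. The causes were not tested, and the shares of all tested genes called under these alternatives are not given here. Over the alternatives for the 40 named genes, 7120 values in all, 220 lost and 143 gained a call, and 578 changed sign with neither value called. Calls between pull-downs stayed at 0 under the alternatives run.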

Other observations

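Of 29 ribosomal protein pseudogenes tested in the pooled comparisons, 3 (Rps6-ps1, Rps6-ps4 and Rpl17-ps5) were higher in LacZ over Input, where 6.98% of all tested genes were higher, so the count is near the background. The median log2 fold change of the 29 was 0.91, against -0.05 over all tested genes, and 0 were called for ODD (median 0.24) and 0 for EVEN (median 0.20), in edgeR. At an unadjusted p under 0.05 there were 9 for LacZ, 1 for ODD and 2 for EVEN. Against LacZ, 0 of 29 passed the test for ODD (median -0.58, 24 below 0) or for EVEN (median -0.78, 25 below 0), in edgeR, with 6 and 7 at an unadjusted p under 0.05. These comparisons share the LacZ libraries. Rpl17-ps5 had 14 and 9 counts in Input, 28 and 26 with LacZ probes, 10 and 4 with ODD and 9 and 13 with EVEN, so its LacZ libraries were the highest although less deeply sequenced than Input. Among ribosome assembly factors, Gnl3, a nucleolar GTPase, was the 1 of 30 higher than Input with ODD and with EVEN. Its change was 0.88 with ODD (SE 0.20, edgeR adjusted p = 0.0481) and 1.17 with EVEN (SE 0.20, edgeR adjusted p = 0.0206). With LacZ 0 of 30 were called. Among all tested genes 6.46%, 5.37% and 6.98% were higher with ODD, EVEN and LacZ. Gnl3 had 1025 and 1008 counts in Input, 630 and 784 with LacZ, 1186 and 756 with ODD and 1298 and 1070 with EVEN. The Input libraries held 24628435 and 20515501 counts and the LacZ libraries 7632775 and 11149143. Relative to depth, Gnl3 was thus above Input with LacZ too. No gene passed the test in ODD or EVEN against LacZ. Ncl, the nucleolar protein nucleolin, had 105 FPKM in EVEN of experiment 1, against 37.6 to 74.1 in the other 7 libraries.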
